A study of Homo sapiens with 18 samples.

Results

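The collagen chains, laminin chains and collagen-handling proteins of 3 pancreatic cancer cell lines were followed through OFD1 knockdown. Members were all gene symbols of the deposited table that name a collagen alpha chain or a laminin alpha, beta or gamma chain, together with PLOD1, PLOD3 and SERPINH1, which gave 59 of 26668 symbols, of which 44 were collagens, 12 were laminins and 3 were collagen-handling proteins. A member was tested in a line when its mean over the 6 libraries of that line was at least 1 FPKM, the number of fragments counted for a gene, scaled to the gene's length and the library's size. Fold changes, knockdown over control, are of log2(FPKM + 0.1) and understate changes of low genes, lower and higher (or fell and rose) stand for an adjusted p below 0.05 in limma, and values in brackets are the standard error (SE) and that adjusted p. By the limit of 1 FPKM, 35 members were tested in at least 1 line, 10 in all 3 lines and 24 in none.

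Collagens are trimers of alpha chains that coil into a triple helix inside the endoplasmic reticulum. There lysyl hydroxylases such as PLOD1 and PLOD3 modify lysines, and the chaperone HSP47, the product of SERPINH1, holds the helix together. Laminins are trimers of 1 alpha, 1 beta and 1 gamma chain that polymerise on the cell surface and, with collagen IV, nidogen and perlecan, form the basement membrane on which epithelial cells sit. Pancreatic ductal adenocarcinoma is known for a dense collagen-rich stroma, most of which is laid down by fibroblasts, while the tumour cells contribute mainly basement membrane chains and a more limited set of collagens.

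All 3 lines (PANC1, MIA PaCa-2, PATU8988T) derive from human pancreatic adenocarcinomas, are long established, and were grown in DMEM with 10% fetal bovine serum. Each was measured by RNA-seq in 3 control libraries and in 3 libraries taken 72 h after doxycycline induced an shRNA against OFD1, which encodes a protein of centrioles and centriolar satellites, from a lentiviral Tet-On construct. The labels call the control libraries shControl without treatment, the study's methods describe the same Tet-On lines given DMSO, and the series text speaks of day 0 and day 3, so the control was not settled here. Doxycycline went to every knockdown library and to no control library, so an effect of doxycycline and one of OFD1 cannot be told apart in these data. Whether each Tet-On line was 1 clone or a pool, and whether replicates were separate cultures, is not given in the sources used here, and p-values then measure only the spread between these libraries, which may be technical. For replicates 2 and 3 of PATU8988T the source labels carry other line numbers than the titles, and the titles were followed.

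The libraries held 32486479 to 39797537 counted fragments, a range recovered from the steps of the FPKM values. OFD1 stood at 5.50, 5.12 and 5.67 FPKM in the control and 2.80, 2.27 and 2.58 FPKM in the knockdown libraries of PANC1, and its log2 fold changes were -1.07 (SE 0.09, adjusted p = 2.70e-06), -0.61 (SE 0.16, adjusted p = 0.0232) and -1.10 (SE 0.10, adjusted p = 5.47e-05) for PANC1, MIA PaCa-2 and PATU8988T (limma with Benjamini-Hochberg adjustment over all tested genes of a line). Control and knockdown libraries did not overlap for OFD1 in any line. In PATU8988T OFD1 passed the limit of 1 FPKM through the control libraries alone, which selects for a difference. Its means there were 2.06 FPKM in the control and 0.911 FPKM in the knockdown libraries. Epithelial markers matched the label in part. KRT8 was at least 362.7 FPKM and KRT18 at least 316.4 FPKM in every library. EPCAM and CDH1 were at most 0.0991 FPKM in MIA PaCa-2. In PATU8988T KRT19 was at most 0.0194 FPKM and CDH1 at most 0.378 FPKM. All 6 fibroblast markers were below a mean of 1 FPKM in each line, DCN was listed at 0 in 17 of 18 libraries, and the summed level of the 6 ranged from 0.0136 to 1.30 FPKM. In PANC1 that sum was 1.04 to 1.30 FPKM in the control and 0.375 to 0.668 FPKM in the knockdown libraries, mostly through THY1. Endothelial markers summed to at most 0.233 FPKM. The summed leukocyte list, nearly all CD68, was 33.5 to 38.7 FPKM against 17.4 to 20.4 FPKM in PANC1, 49.5 to 67.5 against 73.2 to 77.1 FPKM in MIA PaCa-2 and 13.6 to 14.0 against 9.86 to 11.8 FPKM in PATU8988T, while PTPRC, the defining leukocyte marker, was 2.32 to 6.22 FPKM in MIA PaCa-2 and at most 0.0773 FPKM in the other lines. Their part in the results was not tested. Control replicate 2 of MIA PaCa-2 stood apart from the other controls of its line. It was the highest of the 3 controls for 16 of the 21 members tested there and the lowest for the other 5, so values of members in this line are also given without it. OFD1 was -0.76 (adjusted p = 8.76e-05) in MIA PaCa-2 without that library. FPKM of 1 gene are compared within a line only, because the PANC1 columns rest on other gene lengths than the rest of the table.

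In PANC1, 27 members were tested, of which 16 were lower and 6 higher after knockdown at an adjusted p below 0.05, against 32.2% of all tested genes lower and 40.1% higher. Past the study's 2-fold limit 6 members were lower and 1 was higher (background 4.84% and 1.75%). In MIA PaCa-2, 21 members were tested, with 5 lower and 7 higher (background 21.7% and 18.7%) and past 2-fold 2 lower and 1 higher (background 3.68% and 4.07%). In PATU8988T, 16 members were tested, with 13 lower and 1 higher (background 18.5% and 20.9%) and past 2-fold 2 lower and 0 higher (background 0.841% and 0.159%). The median log2 fold change of the tested members was -0.37, 0.10 and -0.34 in PANC1, MIA PaCa-2 and PATU8988T, beside 0.06, -0.03 and 0.03 for all tested genes of the same lines. The share of members called lower was thus above the share over all genes in PANC1 (59.3% of members) and PATU8988T (81.2%) and near it in MIA PaCa-2 (23.8%). The members were chosen with earlier results of these data known, so these shares are no independent test. Without control replicate 2 of MIA PaCa-2 the counts in that line became 7 lower and 12 higher, with 40.0% and 35.1% of all genes called, and 1 lower and 1 higher past 2-fold. Any other library left out of that line gave 4 higher, and any knockdown library left out gave 3 lower. Every member called in a line had no overlap between its control and knockdown libraries, 22, 12 and 14 members in the same order. The share of all called genes without overlap was not worked out, so this is not read as particular to the members. An exact permutation test of 3 against 3 libraries can reach no p below 0.1. In PANC1, 6 members passed the limit of 1 FPKM through 1 group alone, COL16A1 through the knockdown and COL22A1, COL6A1, COL6A2, COL7A1 and LAMB3 through the control libraries, and in PATU8988T 1 member, COL5A1, did so through the control, which selects for a difference. In these bulk RNA values fewer cells with a transcript and less of it per cell cannot be told apart.

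**Figure D1:**
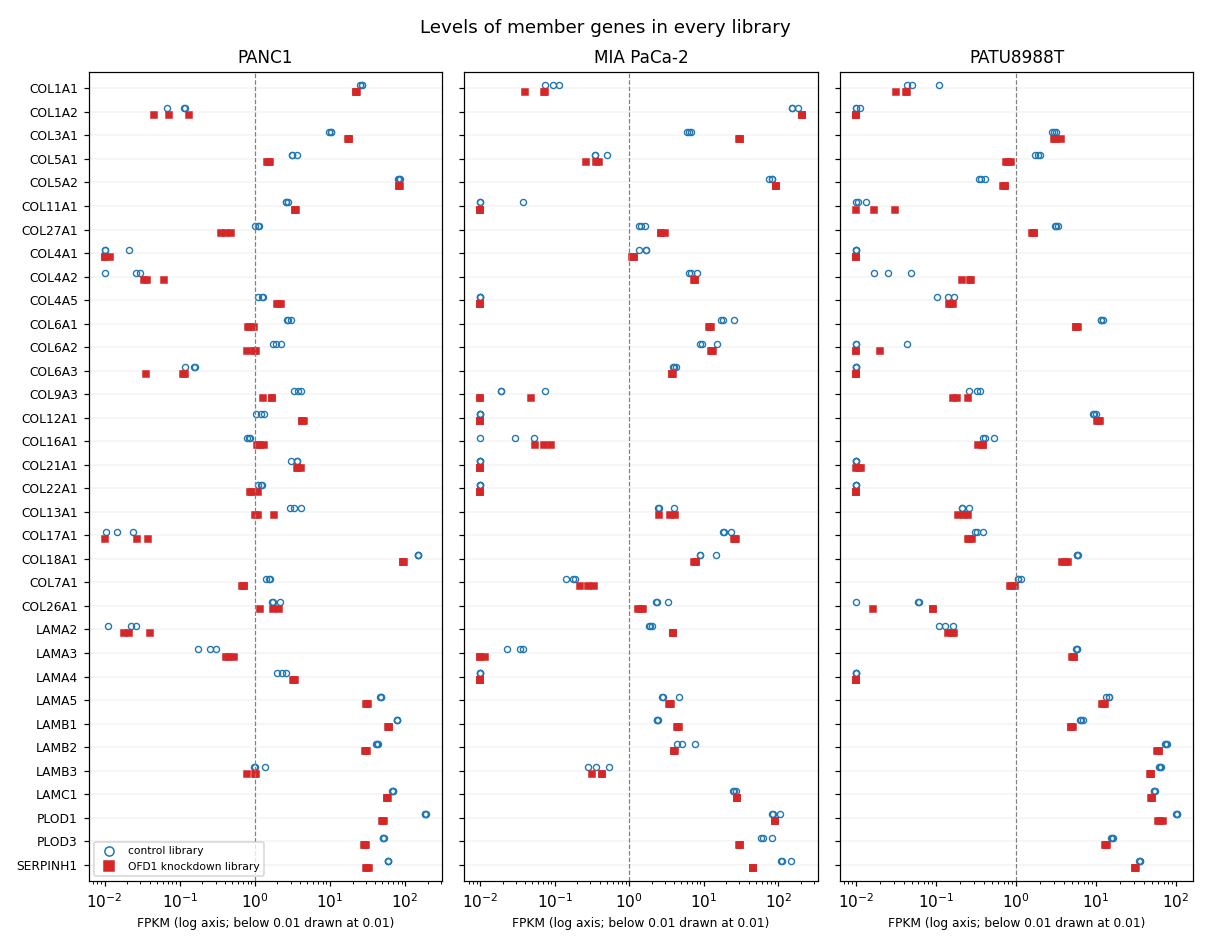
FPKM (log axis) of members tested in at least 1 line (all but 1 of the 35), in every library of the 3 lines; open circles are the 3 control and filled squares the 3 OFD1 knockdown libraries, the dashed line marks 1 FPKM, and values below 0.01 are drawn at 0.01. COL1A1 sits near 26 FPKM in PANC1 alone, COL1A2 between 162 and 205 FPKM on average in MIA PaCa-2 alone, and PLOD1, PLOD3 and SERPINH1 above 10 FPKM in all lines.

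**Figure D2:**
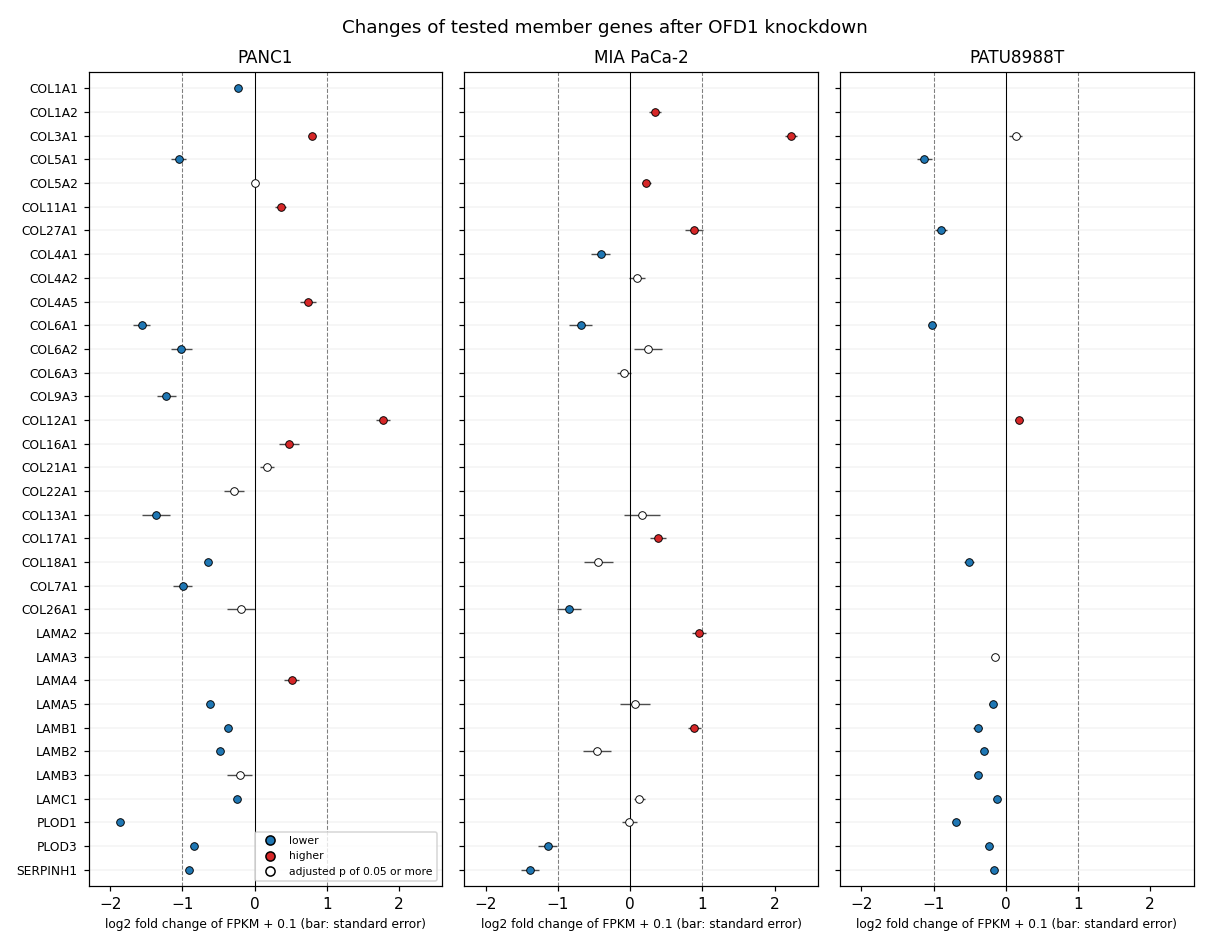
Log2 fold change (knockdown against control, FPKM + 0.1) of the tested members, the same 1 left out, in each line, with its standard error as the bar; blue is lower and red higher at an adjusted p below 0.05, white is neither, and dashed lines mark 2-fold. COL6A1, PLOD3 and SERPINH1 lie left of 0 in all 3 panels, while COL27A1 and LAMB1 change side between lines.

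Among the 10 members tested in all 3 lines, COL6A1, PLOD3 and SERPINH1 were lower in each. The share of all genes lower in each line was not worked out, so this count is not read as particular to the members. The 3 collagen-handling members, PLOD1, PLOD3 and SERPINH1, were lower in all 3 lines except PLOD1 in MIA PaCa-2. They do not stand for all such genes. Of the list of 50 other matrix genes read below, 25 were tested in MIA PaCa-2, with 10 lower and 7 higher (background 21.7% and 18.7%). PLOD1, a lysyl hydroxylase of helical collagen lysines, lies at chr1:11934205-11975538 (GENCODE v29, GRCh38, plus strand). In PANC1 its level was 182, 189.7 and 183 FPKM in the control and 51.7, 51.5 and 49.5 FPKM in the knockdown libraries. All 3 knockdown libraries were far below all controls, at 0.275 times the control level, a log2 fold change of -1.86 (SE 0.03, adjusted p = 3.51e-11), which was the lowest among the 27 members tested in PANC1. In PATU8988T the PLOD1 level was 102, 104 and 104 FPKM in the control and 60.4, 68.1 and 63.3 FPKM in the knockdown libraries, with no overlap and a log2 fold change of -0.69 (SE 0.05, adjusted p = 7.48e-06). In MIA PaCa-2 it was 82.9, 104 and 84.9 FPKM in the control and 89.0, 89.0 and 90.8 FPKM in the knockdown libraries. Here the groups overlapped, the log2 fold change was -0.01 (SE 0.10, adjusted p = 0.938), and without control replicate 2 it was 0.09 (adjusted p = 0.00603), a call of the opposite sign and small size.

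PLOD3, a lysyl hydroxylase that also glycosylates hydroxylysine, lies at chr7:101205977-101218420 on the minus strand. Its level in PANC1 was 52.7, 51.5 and 51.4 FPKM in the control and 28.2, 30.1 and 28.9 FPKM in the knockdown libraries. MIA PaCa-2 held 61.9, 82.7 and 59.2 FPKM and 30.8, 30.004 and 30.5 FPKM in the same order. All 3 knockdown libraries lay below all controls in each of these lines, and control replicate 2 of MIA PaCa-2 was above the other controls. In PATU8988T PLOD3 was 16.3, 15.9 and 15.5 FPKM in the control and 13.1, 13.9 and 13.4 FPKM in the knockdown libraries, also without overlap. The log2 fold changes of PLOD3 were -0.83 (SE 0.03, adjusted p = 1.33e-08), -1.14 (SE 0.13, adjusted p = 0.00117) and -0.24 (SE 0.05, adjusted p = 0.00318) for PANC1, MIA PaCa-2 and PATU8988T, and without control replicate 2 the second of these was -0.99 (adjusted p = 4.00e-08), which no longer passed 2-fold.

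SERPINH1, the collagen chaperone HSP47, lies at chr11:75562056-75572783 on the plus strand. PANC1 held 58.7, 59.0 and 60.0 FPKM in the control and 30.4, 31.4 and 33.2 FPKM in the knockdown libraries. MIA PaCa-2 held 110.3, 148 and 108 FPKM in the control and 46.2, 45.5 and 46.3 FPKM in the knockdown libraries. Knockdown levels were 0.535 and 0.381 times the control levels of these lines, with no overlap. In PATU8988T the fall was small, from 34.9, 35.3 and 35.1 FPKM in the control to 31.0, 31.8 and 31.2 FPKM in the knockdown libraries, again without overlap. The log2 fold changes of SERPINH1 were -0.90 (SE 0.04, adjusted p = 1.30e-08), -1.39 (SE 0.13, adjusted p = 5.17e-04) and -0.16 (SE 0.04, adjusted p = 0.00582) in PANC1, MIA PaCa-2 and PATU8988T, and -1.25 (adjusted p = 5.64e-09) in MIA PaCa-2 without control replicate 2.

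**Figure D3:**
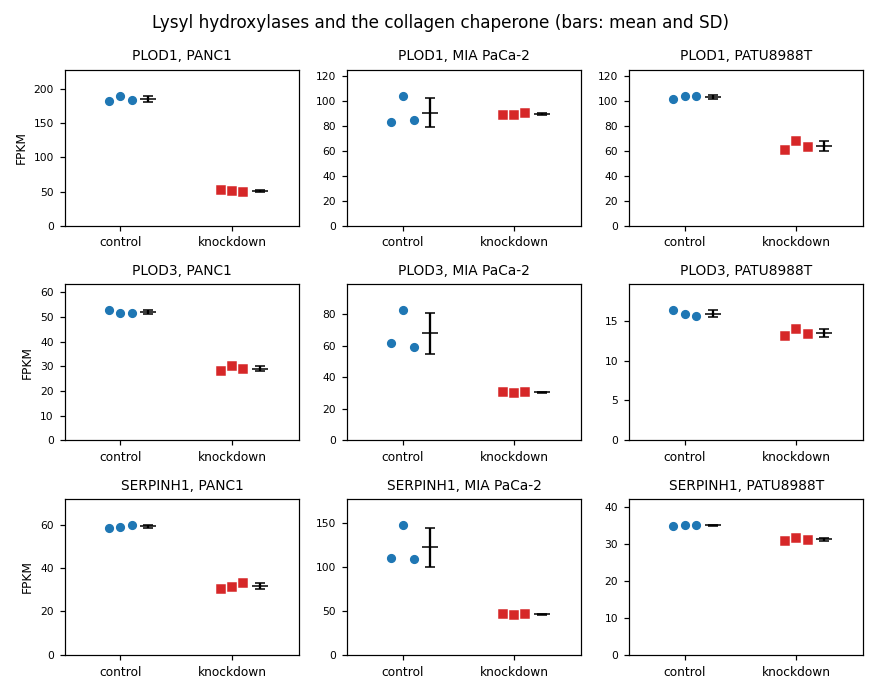
FPKM (linear axis from 0) of PLOD1, PLOD3 and SERPINH1 in the 3 control (circles) and 3 knockdown (squares) libraries of each line, with the mean and SD as the bar beside each group. Controls and knockdown libraries are apart in every panel but PLOD1 in MIA PaCa-2, where control replicate 2 is the highest library.

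Upstream sequence is shown for these genes because PLOD3 and SERPINH1 were lower in all 3 lines and PLOD1 in 2 of them, and for COL12A1 because it rose most in PANC1. The 250 bases before the RefSeq start (GRCh38.p14) of each gene were searched on both strands for the GC box GGGCGG, the letters CCAAT and the heat shock element core GAANNTTC. The cell cycle homology region TTTGAA and the hypoxia response core ACGTG were searched too. Of the 59 members 44 had at least 1 entry, giving 59 start windows. For PLOD1 and COL12A1 the whole window is given, chr1:11934467-11934716 on the plus strand, which lies inside the longer GENCODE span of PLOD1, and chr6:75206054-75206303 on the minus strand. GENCODE v29 has no exon in either. For PLOD3 and SERPINH1, whose windows GENCODE partly counts as transcribed, a stretch of 30 bases is given, with 2 of the 3 matches of PLOD3 and the 1 match of SERPINH1, chr7:101217621-101217650 on the minus strand and chr11:75562171-75562200 on the plus strand. Capitals mark matches to the GC box, CCAAT and GAANNTTC, read 5′ to 3′ on the gene's strand.
PLOD1: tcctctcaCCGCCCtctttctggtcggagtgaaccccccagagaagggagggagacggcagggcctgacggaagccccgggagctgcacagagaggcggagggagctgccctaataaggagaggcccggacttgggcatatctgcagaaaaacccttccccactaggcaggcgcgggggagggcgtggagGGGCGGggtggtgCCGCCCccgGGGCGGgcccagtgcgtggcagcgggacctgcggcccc
PLOD3: aggacCCGCCCccgcgtcCCGCCCgaccct
SERPINH1: ccaactttccaGAAGTTTCtcgggacgggc
COL12A1: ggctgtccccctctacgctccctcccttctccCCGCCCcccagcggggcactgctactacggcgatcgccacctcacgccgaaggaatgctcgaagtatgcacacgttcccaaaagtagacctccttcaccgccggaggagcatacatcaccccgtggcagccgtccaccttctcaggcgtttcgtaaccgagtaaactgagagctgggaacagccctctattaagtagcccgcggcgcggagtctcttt
PLOD1 held 4 GC boxes, PLOD3 held 3 and COL12A1 held 1, while the SERPINH1 window held 1 heat shock element core and 0 GC boxes. The COL12A1 window also held 1 ACGTG, not capitalised. A GC box was found in 59.3% of the member windows and in 42.6% of all 35116 windows of the same length, CCAAT in 25.4% and 32.0%, and GAANNTTC in 11.9% and 5.78%. TTTGAA was found in 13.6% and 13.3% and ACGTG in 13.6% and 18.5%, in the same order. These letter matches are descriptions, and binding at them was not measured.

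Collagen VI, which forms beaded microfibrils around cells from the chains of COL6A1, COL6A2 and COL6A3, was the other group with a member lower in each line. COL6A1 lies at chr21:45981737-46005050 and COL6A2 93046 bases further along chromosome 21. In PANC1, COL6A1 was 2.66, 3.02 and 2.79 FPKM in the control and 0.974, 0.823 and 0.874 FPKM in the knockdown libraries. There COL6A1 passed the limit of 1 FPKM through the control libraries alone, which selects for a difference. In PATU8988T it was 11.4, 11.6 and 12.2 FPKM and 5.67, 5.92 and 5.64 FPKM, and in MIA PaCa-2 17.8, 25.2 and 16.7 FPKM and 12.6, 11.6 and 12.2 FPKM. The 3 knockdown libraries lay below the 3 controls in each line. Log2 fold changes of COL6A1 were -1.56 (SE 0.11, adjusted p = 9.55e-07), -1.02 (SE 0.05, adjusted p = 1.99e-06) and -0.69 (SE 0.16, adjusted p = 0.0152) in PANC1, PATU8988T and MIA PaCa-2, and -0.51 (adjusted p = 2.47e-05) in MIA PaCa-2 without control replicate 2. Leaving out a knockdown library of MIA PaCa-2 ended that call each time, with adjusted p up to 0.0648, and leaving out control replicate 3 of PATU8988T took COL6A1 to -0.99, just inside 2-fold.

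COL6A2, the partner chain, was lower in PANC1 and not called in MIA PaCa-2. It was 2.24, 1.93 and 1.75 FPKM in the control and 1.03, 0.972 and 0.783 FPKM in the knockdown libraries of PANC1, with no overlap and a log2 fold change of -1.01 (SE 0.15, adjusted p = 1.27e-04), which dropped inside 2-fold without control replicate 1 or knockdown replicate 3. COL6A2 too passed the limit of 1 FPKM in PANC1 through the control libraries alone. MIA PaCa-2 held 9.40, 15.0 and 8.98 FPKM and 12.6, 12.9 and 13.2 FPKM of COL6A2. These groups overlapped through control replicate 2, the log2 fold change was 0.25 (SE 0.20, adjusted p = 0.338), and without that library it was 0.48 (adjusted p = 1.45e-05), the opposite direction to COL6A1. The log2 ratio of COL6A1 to COL6A2 within a library was 0.75 to 0.91 in the MIA PaCa-2 controls and -0.15 to -0.00333 in the knockdown libraries. In PANC1 the same ratio was 0.23 to 0.64 in the control and -0.22 to 0.14 in the knockdown libraries, so the ratio was lower in every knockdown library of both lines, control replicate 2 included. COL6A3 was tested in MIA PaCa-2 alone, at 3.92, 4.17 and 3.81 FPKM in the control and 3.69, 3.81 and 3.72 FPKM in the knockdown libraries, with a log2 fold change of -0.08 (SE 0.09, adjusted p = 0.518) and, without control replicate 2, -0.05 (adjusted p = 0.501). PATU8988T held COL6A1 with COL6A2 and COL6A3 below 0.1 FPKM in every library.

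Fibrillar collagens were split between lines in which chains they expressed. COL1A1 and COL1A2 encode the chains of collagen I, the main fibre of connective tissue, and no line held both at 1 FPKM or more. PANC1 had COL1A1 at 25.3, 26.4 and 26.6 FPKM in the control and 22.0, 22.8 and 22.1 FPKM in the knockdown libraries, all 3 of the latter below all controls, and a log2 fold change of -0.23 (SE 0.04, adjusted p = 3.34e-04), beside a COL1A2 mean of 0.1004 ± 0.0274 FPKM (SD, n = 3) in its controls. MIA PaCa-2 had COL1A2 at 152, 182 and 152 FPKM in the control and 205, 205 and 204 FPKM in the knockdown libraries, higher after knockdown with no overlap, beside a COL1A1 mean of 0.0941 ± 0.0205 FPKM (SD, n = 3) in its controls. The COL1A2 log2 fold change was 0.34 (SE 0.08, adjusted p = 0.0183), 0.43 (adjusted p = 1.49e-07) without control replicate 2, and lost its call when any other single library of the line was left out, with adjusted p up to 0.0745. In PATU8988T the control means were 0.0674 ± 0.0363 FPKM (SD, n = 3) for COL1A1 and 0.00373 ± 0.00646 FPKM (SD, n = 3) for COL1A2.

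COL3A1, the single chain of collagen III, rose in the lines with a collagen I chain. MIA PaCa-2 held 6.75, 6.03 and 6.32 FPKM in the control and 30.6, 30.2 and 29.6 FPKM in the knockdown libraries. Each knockdown library stood more than 4 times as high as each control, the log2 fold change was 2.23 (SE 0.08, adjusted p = 1.26e-04), and without control replicate 2 it was 2.19 (adjusted p = 5.32e-09). PANC1 held 9.81, 10.4 and 10.3 FPKM and 17.95, 17.4 and 17.97 FPKM in the same order, a rise without overlap and a log2 fold change of 0.80 (SE 0.04, adjusted p = 1.17e-07). In PATU8988T the values were 3.20, 2.97 and 2.79 FPKM in the control and 3.20, 3.01 and 3.69 FPKM in the knockdown libraries, which overlapped, with a log2 fold change of 0.14 (SE 0.09, adjusted p = 0.266). COL3A1 lies at chr2:188974320-189012746, 19149 bases from COL5A2, a chain of collagen V.

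COL5A1 and COL5A2 encode chains of collagen V, which sits in the core of collagen I fibrils and sets their width. COL5A2 stood at 84.3, 81.7 and 84.4 FPKM in the control and 83.5, 85.5 and 83.5 FPKM in the knockdown libraries of PANC1, which overlapped, with a log2 fold change of 0.01 (SE 0.03, adjusted p = 0.698). In MIA PaCa-2 it was 81.7, 75.9 and 81.0 FPKM in the control and 92.0, 92.6 and 93.8 FPKM in the knockdown libraries, with a log2 fold change of 0.22 (SE 0.06, adjusted p = 0.0297) that was 0.19 (adjusted p = 7.22e-05) without control replicate 2 and lost its call without any other single library. COL5A1 was lower where it was tested. In PANC1 it was 3.10, 3.68 and 3.15 FPKM in the control and 1.6005, 1.57 and 1.46 FPKM in the knockdown libraries, and in PATU8988T 1.75, 1.90 and 1.99 FPKM and 0.788, 0.757 and 0.879 FPKM. Knockdown libraries were lower without overlap in both, with log2 fold changes of -1.05 (SE 0.10, adjusted p = 7.23e-06) and -1.13 (SE 0.11, adjusted p = 6.57e-05), and the PANC1 value became -0.97 without control replicate 2. In PATU8988T, where COL5A1 passed the limit through the control libraries, COL5A2 was below it at a control mean of 0.376 ± 0.0336 FPKM (SD, n = 3) and a knockdown mean of 0.713 ± 0.0247 FPKM (SD, n = 3).

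The remaining fibrillar chains gave 1 member that turned between lines. COL27A1, a fibrillar chain best known from cartilage, was 1.44, 1.61 and 1.35 FPKM in the control and 3.06, 2.66 and 2.66 FPKM in the knockdown libraries of MIA PaCa-2. In PATU8988T it was 3.18, 3.08 and 3.32 FPKM and 1.69, 1.70 and 1.61 FPKM in the same order. All knockdown libraries were above the controls in MIA PaCa-2 and below them in PATU8988T, with log2 fold changes of 0.88 (SE 0.12, adjusted p = 0.00236) and -0.90 (SE 0.08, adjusted p = 3.45e-05) and, without control replicate 2, 0.95 (adjusted p = 3.76e-05) in MIA PaCa-2. In PANC1 COL27A1 lay under the limit at a 6-library mean of 0.745 FPKM, 1.09, 1.01 and 1.12 FPKM in the control and 0.480, 0.413 and 0.354 FPKM in the knockdown libraries. COL11A1, which joins collagen V in thin fibrils, rose by 0.36 (SE 0.08, adjusted p = 0.00169) in PANC1.

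Collagen IV, the sheet-forming collagen of basement membranes, was expressed unevenly. COL4A1 and COL4A2, whose chains form its common trimer, start head to head on chromosome 13 and were tested in MIA PaCa-2 alone. COL4A1 was 1.67, 1.33 and 1.66 FPKM in the control and 1.16, 1.17 and 1.09 FPKM in the knockdown libraries, with no overlap and a log2 fold change of -0.41 (SE 0.13, adjusted p = 0.049). That call is close to the limit, held without control replicate 2 at -0.51 (adjusted p = 0.00273), and was lost without any other single library of the line. COL4A2 was 6.41, 8.13 and 6.82 FPKM in the control and 7.44, 7.68 and 7.63 FPKM in the knockdown libraries, which overlapped, with a log2 fold change of 0.10 (SE 0.11, adjusted p = 0.523) and, without control replicate 2, 0.20 (adjusted p = 0.00715). The log2 ratio of COL4A1 to COL4A2 within a library was -2.53 to -1.88 in the control and -2.70 to -2.58 in the knockdown libraries of MIA PaCa-2. COL4A5, a chain of the minor collagen IV trimers, was tested in PANC1 alone, where it was 1.26, 1.28 and 1.11 FPKM in the control and 2.08, 1.97 and 2.25 FPKM in the knockdown libraries, higher in all of the latter with a log2 fold change of 0.74 (SE 0.11, adjusted p = 2.10e-04). Its head-to-head neighbour COL4A6 was at 0.00659, 0.0161 and 0.0345 FPKM and 0.0840, 0.0400 and 0.107 FPKM in the same libraries.

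COL18A1, the basement membrane multiplexin from which endostatin is cut, was among the highest collagens in PANC1. It was 147, 151 and 148 FPKM in the control and 94.8, 97.4 and 93.3 FPKM in the knockdown libraries there, and 5.999, 5.77 and 5.86 FPKM and 3.74, 4.45 and 4.16 FPKM in PATU8988T. Both lines showed lower knockdown libraries without overlap, with log2 fold changes of -0.64 (SE 0.03, adjusted p = 9.74e-09) and -0.51 (SE 0.07, adjusted p = 6.71e-04). In MIA PaCa-2 COL18A1 was 8.83, 14.4 and 8.87 FPKM in the control and 7.78, 7.83 and 7.33 FPKM in the knockdown libraries. The groups did not overlap, yet the log2 fold change of -0.44 (SE 0.20, adjusted p = 0.118) missed the threshold with control replicate 2 and was -0.21 (adjusted p = 0.00442) without it.

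The collagens that decorate fibrils (FACITs) gave the member that rose most in PANC1. COL12A1 lies at chr6:75084326-75206051 on the minus strand and encodes collagen XII, which binds the surface of collagen I fibrils. It was 1.23, 1.05 and 1.31 FPKM in the control and 4.26, 4.24 and 4.47 FPKM in the knockdown libraries of PANC1, 3.43 times as high with no overlap, a log2 fold change of 1.78 (SE 0.10, adjusted p = 1.60e-07). In PATU8988T COL12A1 was 9.22, 9.98 and 9.53 FPKM in the control and 11.4, 10.5 and 10.9 FPKM in the knockdown libraries, without overlap. Its log2 fold change of 0.19 (SE 0.05, adjusted p = 0.023) was small and was lost without control replicate 1 or 3 or knockdown replicate 1 or 3. In MIA PaCa-2 COL12A1 was listed at 0 in 5 of 6 libraries. COL9A3, a chain of collagen IX, went down in PANC1 from 3.30, 3.80 and 4.16 FPKM in the control to 1.70, 1.70 and 1.27 FPKM in the knockdown libraries, with no overlap and a log2 fold change of -1.22 (SE 0.13, adjusted p = 1.65e-05). COL16A1, another FACIT, had 0.48 (SE 0.14, adjusted p = 0.0119) in PANC1, a call lost without knockdown replicate 3 (adjusted p = 0.0516). It passed the limit of 1 FPKM there through the knockdown libraries alone, which selects for a difference. COL21A1 and COL22A1 had log2 fold changes of 0.17 (SE 0.09, adjusted p = 0.114) and -0.28 (SE 0.14, adjusted p = 0.0976) in PANC1 and did not pass the test.

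Transmembrane and anchoring collagens differed by line as well. COL13A1, a membrane-spanning collagen of cell adhesion sites, was 4.07, 3.33 and 2.95 FPKM in the control and 1.81, 1.10 and 1.02 FPKM in the knockdown libraries of PANC1. It was lower in every knockdown library, with a log2 fold change of -1.36 (SE 0.20, adjusted p = 1.36e-04). MIA PaCa-2 held 2.52, 4.01 and 2.45 FPKM and 2.47, 4.07 and 3.49 FPKM, which overlapped, with a log2 fold change of 0.16 (SE 0.25, adjusted p = 0.633). Leaving out single libraries moved that value between 0.01 and 0.39, the highest being 0.39 (adjusted p = 0.0772) without control replicate 2. COL17A1, the hemidesmosomal collagen of epithelia, averaged 20.1 ± 2.72 FPKM (SD, n = 3) across controls and 26.1 ± 0.725 FPKM (SD, n = 3) after knockdown of OFD1 in MIA PaCa-2, with a log2 fold change of 0.39 (SE 0.11, adjusted p = 0.0307) that was 0.49 (adjusted p = 4.26e-06) without control replicate 2 and lost its call without any other single library. COL7A1, whose anchoring fibrils fasten the basement membrane to the matrix below, had -0.997 (SE 0.13, adjusted p = 7.41e-05) in PANC1 and lay just inside 2-fold. It passed the limit of 1 FPKM there through the control libraries alone, which selects for a difference. COL26A1 was lower in MIA PaCa-2, with -0.85 (SE 0.17, adjusted p = 0.0088) and, without control replicate 2, -0.68 (adjusted p = 3.35e-04), and in PANC1 had -0.19 (SE 0.19, adjusted p = 0.394).

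Of 7 laminins tested in PANC1, 5 were lower and 1 higher, of 7 in PATU8988T 6 were lower and 0 higher, and of 5 in MIA PaCa-2 0 were lower and 2 higher, none of them past 2-fold. Over all tested genes 32.2% were lower and 40.1% higher in PANC1, 18.5% and 20.9% in PATU8988T, and 21.7% and 18.7% in MIA PaCa-2. The counts of 0 in these lines, and that of members higher past 2-fold in PATU8988T, were also 0 at an unadjusted p below 0.05 in limma and with limma-voom on recovered reads. Leaving out control replicate 2 or 3 of MIA PaCa-2 gave 1 laminin called lower there, LAMB2, at -0.24 (adjusted p = 0.0202) and -0.63 (adjusted p = 0.0464).

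LAMA3 and LAMB3 encode chains of laminin-332, the laminin of hemidesmosomes, of which LAMB3 was lower in 1 line and LAMA3 in none. LAMB3 was 62.2, 62.6 and 64.5 FPKM in the control and 47.0, 49.5 and 49.1 FPKM in the knockdown libraries of PATU8988T, lower without overlap, with a log2 fold change of -0.38 (SE 0.04, adjusted p = 7.30e-05). In PANC1 LAMB3 was 1.35, 0.964 and 1.004 FPKM and 1.001, 0.777 and 1.05 FPKM, which overlapped, with a log2 fold change of -0.20 (SE 0.17, adjusted p = 0.313). LAMA3 was 5.77, 5.61 and 5.86 FPKM in the control and 5.27, 5.00 and 5.29 FPKM in the knockdown libraries of PATU8988T, with a log2 fold change of -0.14 (SE 0.06, adjusted p = 0.0688) that did not pass the test, and in PANC1 it lay under the limit. The log2 ratio of LAMA3 to LAMB3 within a library of PATU8988T was -3.46 to -3.41 in the control and -3.28 to -3.13 in the knockdown libraries, with no overlap.

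LAMA5, LAMB1 and LAMC1 encode laminin-511, the common epithelial basement membrane laminin, and all 3 were tested in all lines. LAMA5 was 48.2, 48.0 and 47.0 FPKM in the control and 30.1, 31.9 and 31.0 FPKM in the knockdown libraries of PANC1, and 13.5, 14.5 and 14.5 FPKM and 12.05, 12.9 and 12.5 FPKM in PATU8988T. It was lower without overlap in both, with log2 fold changes of -0.62 (SE 0.03, adjusted p = 8.80e-08) and -0.18 (SE 0.05, adjusted p = 0.019), the latter lost without control replicate 2 or 3 or knockdown replicate 3. In MIA PaCa-2 LAMA5 was 2.77, 4.68 and 2.81 FPKM in the control and 3.41, 3.46 and 3.58 FPKM in the knockdown libraries. Control replicate 2 was the highest library and the other 2 controls the lowest, the log2 fold change was 0.07 (SE 0.21, adjusted p = 0.812), and without that control it was 0.31 (adjusted p = 0.00279).

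LAMB1 lies at chr7:107923799-108003255 on the minus strand and was the laminin whose direction turned. Its level was 77.1, 79.1 and 77.6 FPKM in the control and 60.5, 59.6 and 60.4 FPKM in the knockdown libraries of PANC1, and 6.53, 6.84 and 6.26 FPKM and 4.88, 4.87 and 5.17 FPKM in PATU8988T. Both were lower after knockdown without overlap, with log2 fold changes of -0.37 (SE 0.03, adjusted p = 5.53e-07) and -0.39 (SE 0.06, adjusted p = 0.001). In MIA PaCa-2 LAMB1 was 2.32, 2.42 and 2.35 FPKM in the control and 4.58, 4.38 and 4.46 FPKM in the knockdown libraries, higher without overlap, with a log2 fold change of 0.89 (SE 0.09, adjusted p = 8.34e-04) and of 0.91 (adjusted p = 3.63e-06) without control replicate 2. LAMC1, the gamma 1 chain, was 67.9, 69.0 and 70.1 FPKM in the control and 58.4, 57.3 and 59.4 FPKM in the knockdown libraries of PANC1, 26.6, 24.2 and 25.8 FPKM and 27.8, 27.9 and 28.1 FPKM in MIA PaCa-2, and 52.9, 54.8 and 53.9 FPKM and 50.4, 48.8 and 49.8 FPKM in PATU8988T. Log2 fold changes of LAMC1 were -0.24 (SE 0.03, adjusted p = 2.62e-05), 0.13 (SE 0.07, adjusted p = 0.202) and -0.12 (SE 0.04, adjusted p = 0.0271), of which the PANC1 call alone held without each single library and the MIA PaCa-2 value became 0.09 (adjusted p = 0.024) without control replicate 2. The log2 ratio of LAMB1 to LAMC1 within a library rose from -3.46 to -3.27 in the control to -2.64 to -2.58 in the knockdown libraries of MIA PaCa-2, and went from -3.08 to -2.99 to -3.34 to -3.25 in PATU8988T.

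LAMB2, a beta chain of laminin-521, averaged 42.0 ± 0.981 FPKM (SD, n = 3) across controls and 30.2 ± 0.711 FPKM (SD, n = 3) after knockdown in PANC1, and 75.1 ± 2.92 FPKM (SD, n = 3) across controls and 60.8 ± 2.09 FPKM (SD, n = 3) after knockdown in PATU8988T. It was lower in both, with log2 fold changes of -0.47 (SE 0.03, adjusted p = 7.78e-07) and -0.30 (SE 0.04, adjusted p = 5.75e-04), while MIA PaCa-2 gave -0.46 (SE 0.20, adjusted p = 0.108) and, without control replicate 2, -0.24 (adjusted p = 0.0202). LAMA4 and LAMA2 were tested in 1 line each and were higher there. LAMA4, a chain of mesenchymal and vascular laminins, had 0.52 (SE 0.10, adjusted p = 0.0013) in PANC1, and LAMA2, the muscle and nerve laminin chain, had 0.96 (SE 0.10, adjusted p = 8.14e-04) in MIA PaCa-2. Without control replicate 2 that value was 0.93 (adjusted p = 6.40e-06).

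**Figure D4:**
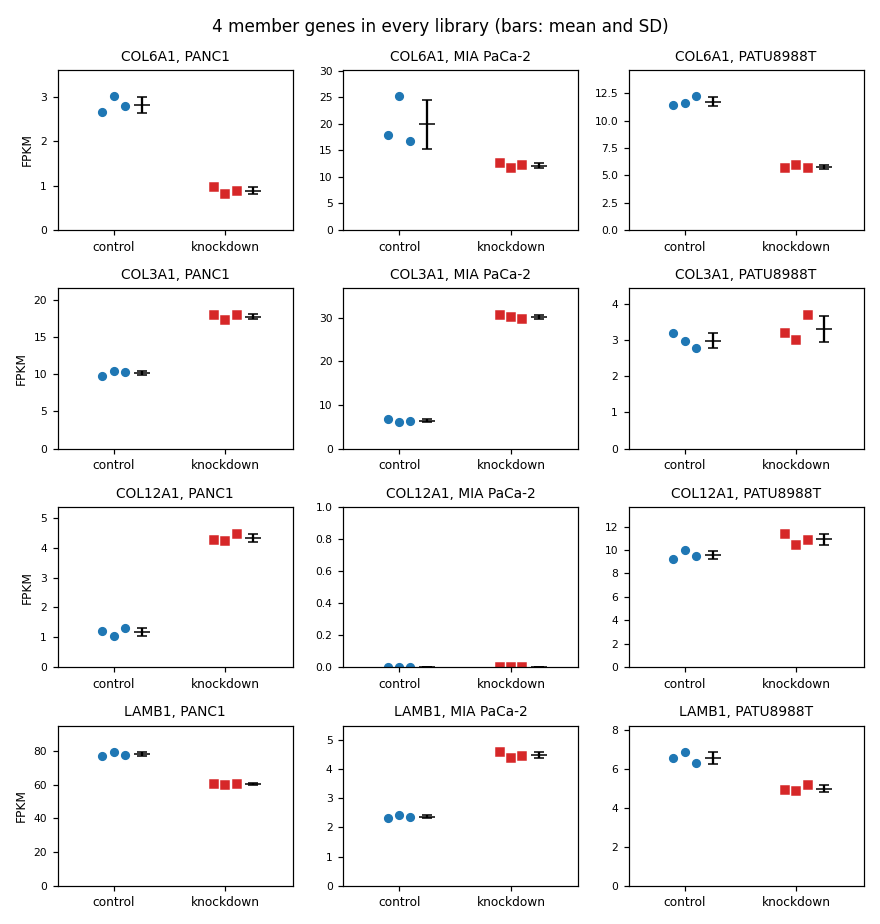
FPKM (linear axis from 0, each panel with its own scale) of COL6A1, COL3A1, COL12A1 and LAMB1 in the 3 control (circles) and 3 knockdown (squares) libraries of each line, with the mean and SD as the bar beside each group. COL6A1 is lower in all 3 lines, COL3A1 is higher in PANC1 and MIA PaCa-2, COL12A1 is near 0 in MIA PaCa-2, and LAMB1 is higher in MIA PaCa-2 and lower in the other lines.

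Differences between lines were tested as the change in 1 line minus the change in another, in 1 limma fit over all 18 libraries. Of 39 such comparisons, over 19 members tested in at least 2 lines, 11 passed an adjusted p below 0.05 with a difference of log2 fold changes above 1 or below -1. PANC1 and MIA PaCa-2 differed for 5 of 14 members (background 5.2% of genes), PANC1 and PATU8988T for 2 of 14 (background 4.58%) and MIA PaCa-2 and PATU8988T for 4 of 11 (background 8.97%). PLOD1 fell further in PANC1, with a difference of -1.85 (SE 0.10, adjusted p = 9.13e-10) to MIA PaCa-2 and -1.17 (SE 0.10, adjusted p = 1.75e-07) to PATU8988T. COL3A1 rose more in MIA PaCa-2 than in the other lines, with PANC1 minus MIA PaCa-2 at -1.43 (SE 0.10, adjusted p = 5.64e-08) and MIA PaCa-2 minus PATU8988T at 2.09 (SE 0.10, adjusted p = 3.98e-10). LAMB1 gave -1.26 (SE 0.07, adjusted p = 2.57e-09) and 1.28 (SE 0.07, adjusted p = 1.20e-09) in the same pairs. PANC1 minus MIA PaCa-2 was -1.53 (SE 0.32, adjusted p = 0.00111) for COL13A1 and -1.27 (SE 0.25, adjusted p = 7.53e-04) for COL6A2. In PANC1 COL6A2 passed the limit of 1 FPKM through the control libraries alone, which selects for a difference. COL12A1 rose more in PANC1 than in PATU8988T, by 1.59 (SE 0.11, adjusted p = 2.65e-08). MIA PaCa-2 minus PATU8988T was 1.78 (SE 0.14, adjusted p = 4.47e-08) for COL27A1 and -1.23 (SE 0.12, adjusted p = 4.21e-07) for SERPINH1. All 9 of these that involve MIA PaCa-2 passed both limits without its control replicate 2 too.

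Smaller differences also passed the adjusted p alone. PANC1 minus PATU8988T was -0.74 (SE 0.12, adjusted p = 1.33e-04) for SERPINH1, -0.60 (SE 0.12, adjusted p = 0.00135) for PLOD3 and 0.66 (SE 0.10, adjusted p = 1.38e-04) for COL3A1. Members that missed the adjusted p in this pair are not thereby shown to respond alike, among them LAMA5 at -0.44 (SE 0.19, adjusted p = 0.0795), LAMC1 at -0.12 (SE 0.06, adjusted p = 0.102), COL5A1 at 0.08 (SE 0.18, adjusted p = 0.783) and LAMB1 at 0.02 (SE 0.07, adjusted p = 0.893). The SE of each difference rests on the spread over all 18 libraries, MIA PaCa-2 with its control replicate 2 included. Within single lines the SE of LAMA5 was 0.03 in PANC1, 0.05 in PATU8988T and 0.21 in MIA PaCa-2. How far MIA PaCa-2 decided the misses in this pair was not tested. COL6A1 was lower in all 3 lines, and fell further in PANC1, with a difference of -0.88 (SE 0.16, adjusted p = 4.64e-04) to MIA PaCa-2 and -0.54 (SE 0.16, adjusted p = 0.0158) to PATU8988T, neither past the limit of 1. In PANC1 COL6A1 passed the limit of 1 FPKM through the control libraries alone, which selects for a difference. PLOD3 in PANC1 minus MIA PaCa-2 was 0.31 (SE 0.12, adjusted p = 0.0563) and in MIA PaCa-2 minus PATU8988T -0.90 (SE 0.12, adjusted p = 1.85e-05).

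The wider machinery of collagen and basement membrane was read from a list of 50 genes that are no members. This list too was chosen with earlier results of these data known. In PANC1 24 of 35 tested were lower and 6 higher, in MIA PaCa-2 10 of 25 were lower and 7 higher, and in PATU8988T 13 of 26 were lower and 2 higher, beside the background shares given above. Past 2-fold the counts were 5 lower and 3 higher, 1 and 0, and 3 and 0 in the same order. Without control replicate 2 MIA PaCa-2 gave 12 lower and 10 higher, with 0 past 2-fold in either direction. The median log2 fold change of the list was -0.51, -0.24 and -0.17. Prolyl 3-hydroxylase genes were mixed. P3H2 had 0.08 (SE 0.04, adjusted p = 0.0789) in PANC1 and 0.18 (SE 0.07, adjusted p = 0.0845) in PATU8988T, neither called, and was lower in MIA PaCa-2 with -0.92 (SE 0.14, adjusted p = 0.00288). P3H3 went from 3.54, 3.53 and 3.37 FPKM in the control to 0.667, 0.489 and 0.698 FPKM in the knockdown libraries of PANC1, with log2 fold changes of -2.33 (SE 0.14, adjusted p = 1.90e-07), -0.93 (SE 0.23, adjusted p = 0.0174) and -1.03 (SE 0.13, adjusted p = 3.37e-04) for PANC1, MIA PaCa-2 and PATU8988T. It passed the limit of 1 FPKM through the control libraries alone in PANC1 and PATU8988T, which selects for a difference, and was -0.66 (adjusted p = 1.50e-06) in MIA PaCa-2 without control replicate 2. P3H4, which works with the lysyl hydroxylase complex, gave -1.06 (SE 0.04, adjusted p = 1.17e-08) and -1.12 (SE 0.16, adjusted p = 0.00231) in PANC1 and MIA PaCa-2 and was not tested in PATU8988T. Without control replicate 2 the MIA PaCa-2 value of P3H4 was -0.95 (adjusted p = 8.47e-07), inside 2-fold. P3H1, the main collagen prolyl 3-hydroxylase, was -1.14 (SE 0.03, adjusted p = 1.23e-09) in PANC1. Of 21 list genes tested in all lines, P3H1, P3H3 and COLGALT1, a collagen galactosyltransferase, were lower in all 3. The share of all genes lower in all 3 lines was not worked out, so this is not read as particular to the list.

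Other list genes past 2-fold were spread over functions. In PANC1 the crosslinking enzyme LOXL1 had -1.42 (SE 0.08, adjusted p = 1.44e-07) and NID1, which links laminin to collagen IV, -1.32 (SE 0.04, adjusted p = 2.84e-09). FN1 (fibronectin) rose in PANC1 from 1.95, 2.18 and 2.02 FPKM in the control to 6.94, 6.32 and 6.35 FPKM in the knockdown libraries, a log2 fold change of 1.63 (SE 0.08, adjusted p = 4.27e-08). TIMP3, an inhibitor of matrix proteases, and the lysyl oxidase LOX were also higher in PANC1, with 1.56 (SE 0.14, adjusted p = 4.57e-06) and 1.04 (SE 0.12, adjusted p = 2.42e-05). In PATU8988T LOX was lower, with -1.05 (SE 0.08, adjusted p = 1.52e-05), as was the collagen prolyl 4-hydroxylase subunit P4HA2, with -1.01 (SE 0.05, adjusted p = 2.16e-06). PLOD2, the lysyl hydroxylase of collagen telopeptides and the third of that family beside PLOD1 and PLOD3, had -0.39 (SE 0.03, adjusted p = 1.65e-06) in PANC1 and -0.25 (SE 0.05, adjusted p = 0.0052) in PATU8988T and was not tested in MIA PaCa-2.

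The limit was not reached by 32 members in PANC1, 38 in MIA PaCa-2 and, for PATU8988T, 43, of which 2, 10 and 8 were listed at 0 in all 6 libraries of the line. Among them are the chains of cartilage and kidney collagens COL2A1, COL4A3 and COL4A4, and the laminin chain LAMB4. Nearest to the limit in PANC1 was LAMC3, with 1.501, 1.44 and 1.56 FPKM in the control and 0.321, 0.373 and 0.421 FPKM in the knockdown libraries and a 6-library mean of 0.937 FPKM. The PATU8988T values of COL7A1 were 1.05, 1.05 and 1.16 FPKM in the control and 0.845, 0.882 and 0.961 FPKM in the knockdown libraries, a mean of 0.992 FPKM. Just inside the limit were COL16A1, LAMB3 and COL22A1 in PANC1, with 6-library means of 1.02, 1.02 and 1.08 FPKM. The table also lists antisense genes to COL18A1, LAMA5, COL4A2, COL5A1, COL1A2 and LAMC1, and since the strand setting of the counting is not given in the sources used here, reads of these 6 genes and their antisense partners may not be told apart.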

How the data were processed

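RNA-seq of 3 control and 3 OFD1 knockdown libraries of each of 3 pancreatic cancer lines was analysed. The deposited table holds FPKM, which the authors made, per the labels and the study's methods, with HISAT2 alignment and HTSeq-count counting, in versions not given in the sources used here. The processing notes name the builds hg38 and mm10, and the labels and methods differ on the RNA and library kits. A gene was tested in a line at a mean of at least 1 FPKM over its 6 libraries. Values were log2(FPKM + 0.1), fitted with limma 3.58.1 (R 4.3.3; eBayes with trend, two-sided tests, Benjamini-Hochberg over all tested genes), per line for the knockdown contrast and over all 18 libraries for differences between lines. A count test was not used because the values are FPKM. Calls past 2-fold follow the study's limit of a fold above 2 or below 0.5. The FPKM worth of 1 read, read from the steps between values of a gene, gave the depth (32486479 to 39797537 fragments per library, median 36927700). No pair of replicates was a duplicate, with a lowest chi-square per degree of freedom of 3.04. The members and lists were chosen with earlier results of these data known. Named in every library were members past 2-fold, members called in all 3 lines, fixed partner chains, and PLOD1, PLOD3 and SERPINH1. 1 of these members is counted but not reported here. Other members are given by fold change or count, and a companion list of 50 matrix genes by counts with values past 2-fold. PLOD2 and COL7A1, COL27A1 and LAMC3 below the limit were added after their values were seen. Alternatives were other pseudocounts, filters, a median shift, counts recovered from FPKM with voom, a replicate block and leaving out each library. Sequences are RefSeq (GRCh38.p14).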

Additional observations from a re-analysis of the deposited data

Results flagged for a closer look

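These 11 values, over 8 members, stand out because the change with knockdown was tested between 2 lines and differed by more than 1 on the log2 scale (limma interaction over 18 libraries). PANC1 minus MIA PaCa-2 was -1.53 for COL13A1, -1.43 for COL3A1, -1.27 for COL6A2, -1.26 for LAMB1 and -1.85 for PLOD1. PANC1 minus PATU8988T was 1.59 for COL12A1 and -1.17 for PLOD1. MIA PaCa-2 minus PATU8988T was 1.78 for COL27A1, 2.09 for COL3A1, 1.28 for LAMB1 and -1.23 for SERPINH1. COL27A1 and LAMB1 were called in opposite directions in MIA PaCa-2 and PATU8988T, with no overlap of libraries in either line, and LAMB1 likewise in MIA PaCa-2 and PANC1. COL3A1 rose in both PANC1 and MIA PaCa-2 and differed in size. With a pseudocount of 1 the COL6A2 difference was -0.86, inside the limit. COL6A2 passed the limit of 1 FPKM in PANC1 through the control libraries alone.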

How the results depend on the processing

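In PANC1 a mean of at least 5 FPKM left 10 lower, 1 higher, 1 lower past 2-fold and 0 higher past 2-fold, no filter gave 13 higher and 2 higher past 2-fold, and a pseudocount of 1 left 2 lower past 2-fold. In MIA PaCa-2 no filter gave 8 lower and 4 lower past 2-fold, and at least 5 FPKM left 3 lower and 4 higher. Leaving out each library in turn gave there 3 to 7 lower, 4 to 12 higher and 1 to 2 lower past 2-fold. In PATU8988T no filter gave 3 higher and 1 higher past 2-fold, a pseudocount of 1 left 0 and at least 5 FPKM left 1 lower past 2-fold, and leaving out libraries gave 0 to 1 higher and 1 to 2 lower past 2-fold. Differences between lines numbered 15, 7 and 9 without a filter and 2, 1 and 1 at 5 FPKM, for PANC1 with MIA PaCa-2, PANC1 with PATU8988T and MIA PaCa-2 with PATU8988T. Fitting the 12 libraries of 2 lines only, an alternative chosen after seeing the data, left them at 5, 2 and 4. A filter of 5 FPKM tests fewer genes and no filter more, and otherwise the cause was not tested.

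Shifting each library to a median log2 ratio of 0 turned COL5A2 in PANC1 to -0.0396 and PLOD1 in MIA PaCa-2 to 0.0173, neither past the threshold, ended the COL4A1 call in MIA PaCa-2 (adjusted p = 0.0592), gained LAMA3 in PATU8988T (adjusted p = 0.041), and took the split of all genes in PANC1 from 32.2% lower and 40.1% higher to 35.7% and 34.8%. Leaving out libraries took COL26A1 in PANC1 from -0.359 to 0.0375, COL5A2 in PANC1 from -0.00363 to 0.0197, LAMA5 in MIA PaCa-2 from -0.0568 to 0.312 and PLOD1 in MIA PaCa-2 from -0.0713 to 0.0942. Of the values of single members, 337 held their direction and call without 1 library, 35 lost the call, 7 gained it and 5 turned. With voom on recovered reads 62 held and COL22A1 in PANC1 and LAMA3 in PATU8988T were gained. Without a filter the COL4A1 call was lost (adjusted p = 0.114).

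Whether replicate numbers pair the samples is not given in the sources used here. Of 9 same-number correlations 1 was above 0.1 (0.13, PATU8988T replicate 1), which cannot settle it. With the replicate block 16 members were lower and 6 higher in PANC1. MIA PaCa-2 gave 4 lower and 5 higher, and PATU8988T 12 lower and 1 higher. The calls lost were COL17A1 (adjusted p = 0.0598), COL4A1 (adjusted p = 0.115) and COL5A2 (adjusted p = 0.111) in MIA PaCa-2 and LAMC1 (adjusted p = 0.0568) in PATU8988T. Log2 ratios of partner chains without a pseudocount kept their direction in all lines.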

Other observations

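Some members below the limit of 1 FPKM, chosen after their values were seen and not tested, had control and knockdown libraries that did not overlap. In MIA PaCa-2 COL10A1, the hypertrophic cartilage collagen, was 0.160, 0.101 and 0.149 FPKM in the control and 0.00725, 0.00740 and 0.0318 FPKM in the knockdown libraries, on 3 to 67 reads. COL5A3, a minor chain of collagen V, was 0.385, 0.617 and 0.316 FPKM in the control and 0.0950, 0.114 and 0.0837 FPKM in the knockdown libraries of the same line, on 20 to 153 reads. The FACIT COL14A1 was 0.0745, 0.127 and 0.0585 FPKM in the control and 0.317, 0.363 and 0.375 FPKM in the knockdown libraries of PANC1, on 18 to 115 reads.

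In PATU8988T COL4A2 was 0.0168, 0.0484 and 0.0251 FPKM in the control and 0.269, 0.277 and 0.209 FPKM in the knockdown libraries, on 4 to 64 reads. LAMA1, an alpha chain of embryonic basement membranes, was 0.449, 0.465 and 0.423 FPKM in the control and 0.613, 0.609 and 0.719 FPKM in the knockdown libraries of that line. LAMC3, the gamma 3 chain, had control and knockdown means of 1.502 and 0.371 FPKM in PANC1, 0.632 and 0.355 FPKM in MIA PaCa-2, and 0.232 and 0.0955 FPKM in PATU8988T, with no overlap of libraries in any line.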
